A study of Mus musculus with 48 samples.

Results

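The liver X receptors (LXRs) and 3 of their target genes were followed in stretched and non-stretched C2C12 cells, a mouse myoblast line that forms muscle fibre-like cells on differentiation. The 5 genes are the receptors Nr1h2 (LXR beta) and Nr1h3 (LXR alpha) and the targets Mylip, Abca1 and Abcg1, out of 47480 gene symbols in the count tables. They were chosen by name, with the stretch response of Mylip and Abca1 in these libraries already known. All 5 passed the filter on low counts in each of the 6 comparisons. RNA was sequenced from 48 libraries in 12 groups of 4: stretched and non-stretched myoblasts, and stretched and non-stretched differentiated cells, each at 1 h, 3 h and 6 h. All groups were C2C12 cells on flexible, collagen-coated plates, the labels name no altered gene and no drug, and each time point had non-stretched cells of its own. Stretching was cyclic and equal in all directions of the membrane. Myoblasts came from experiments B27 (replicates 7 and 8) and B31 (replicates 9 and 10). Differentiated cells came from B25 (replicates 7 and 8) and B28 (replicates 9 and 10), but the stretched group at 1 h held replicates 4, 7, 8 and 9, and replicate 4 was the only library of experiment B17. C2C12 is a single line, so differences between donors were not measured. Libraries of a group are separate samples by their labels, which do not say whether they are separate cultures, so the spread between them may be partly technical.

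LXRs are nuclear receptors that are activated by oxysterols, the oxidised forms of cholesterol, and that bind DNA together with a retinoid X receptor (RXR). Active LXRs switch on genes that lower the sterol content of a cell. Abca1 passes cholesterol to lipid-poor apolipoprotein A-I, Abcg1 passes it to high-density lipoprotein, and MYLIP (also called IDOL) is a ubiquitin ligase that marks lipoprotein receptors for degradation. A separate arm, the transcription factor SREBP2, raises cholesterol synthesis and uptake when sterols are scarce. In skeletal muscle LXRs are known for control of lipid and glucose metabolism.

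The stretches before the start sites of Mylip and Abca1 are shown because these genes had the largest differences between stretched and non-stretched cells among the 5. They come from RefSeq (build GRCm38.p6) and hold the 250 bases before the start site, on the strand of the gene, 5′ to 3′. Capitals mark a match, on either strand, to GGTTA followed by any 4 bases and CGGTCA, the letters of the LXR site known in front of Abca1 and Srebf1.
Mylip, chr13:45389492-45389741, plus strand: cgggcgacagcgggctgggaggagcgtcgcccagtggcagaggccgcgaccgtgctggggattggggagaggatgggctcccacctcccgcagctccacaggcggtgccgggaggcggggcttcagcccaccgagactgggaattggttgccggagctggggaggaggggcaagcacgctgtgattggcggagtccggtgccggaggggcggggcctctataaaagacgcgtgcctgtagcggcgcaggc
Abca1, chr4:53159896-53160145, minus strand: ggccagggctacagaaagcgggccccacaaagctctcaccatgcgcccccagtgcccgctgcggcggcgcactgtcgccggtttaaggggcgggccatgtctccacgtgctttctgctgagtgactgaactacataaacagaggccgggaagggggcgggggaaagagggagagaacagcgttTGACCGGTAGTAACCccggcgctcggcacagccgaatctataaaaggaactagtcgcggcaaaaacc

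The Abca1 match lies at bases -67 to -53 from the start site and reads in the opposite direction to the gene. The Mylip window holds no match, nor do those of Nr1h2 and Nr1h3. Both strands of 32851 RefSeq promoter windows (250 bases before to 50 after the start) were searched, and 4 of them (0.0122%) hold these letters: Abca1, the lipogenic transcription factor Srebf1, the fatty acid synthase Fasn and Prrg4. The letters were taken from the known Abca1 and Srebf1 sites, so those matches follow from the choice. The ideal repeat, AGGTCA repeated after any 4 bases, was found in 5 windows (0.0152%), none of them of Mylip, Abca1, Nr1h2 or Nr1h3. No window of Abcg1 was available, so Abcg1 was not searched for either pattern. Sites outside these windows, or with letters other than these patterns, were not searched. A window without a match thus does not show that a gene lacks an LXR site. The 3 other windows with a match are shown with 20 bases on each side, since they give the sites that share the Abca1 letters.
Srebf1, chr11:60210619-60210673, minus strand: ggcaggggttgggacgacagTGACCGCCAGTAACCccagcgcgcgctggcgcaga
Fasn, chr11:120824738-120824792, minus strand: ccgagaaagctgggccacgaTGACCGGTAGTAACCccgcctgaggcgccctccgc
Prrg4, chr2:104849883-104849937, minus strand: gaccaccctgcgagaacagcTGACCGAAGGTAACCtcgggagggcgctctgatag

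In the GENCODE vM21 annotation, which is on mm10, the build the authors used, all 5 genes are protein coding. Mylip spans chr13:45389742-45412022 on the plus strand and Abca1 chr4:53030787-53159895 on the minus strand. Abcg1 spans chr17:31057675-31117988 on the plus strand. The receptors lie on the minus strand, Nr1h2 at chr7:44549616-44553951 and Nr1h3 at chr2:91184061-91202834. Of the 31-base stretches in their transcripts, between 0% (Abca1 and Nr1h2) and 1.45% (Abcg1) also occur in other genes, so little of their count can depend on how shared reads were divided.

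The libraries held between 48447318 and 77080730 counts. Levels are given as CPM, counts scaled to library size over all 48 libraries, and levels of different genes are compared only as CPM per kilobase of exon. The 6 differentiated muscle markers summed to between 7.14 and 15.9 CPM in non-stretched and between 6.75 and 10.9 in stretched myoblasts. In differentiated cells they summed to between 9903 and 11751 CPM without and between 9511 and 11215 with stretching, so by these markers the stages matched their labels. The 3 proliferating myoblast markers summed to between 551 and 741 CPM in non-stretched and between 506 and 761 in stretched myoblasts. In differentiated cells they were lower but not absent, between 123 and 195 CPM without and between 143 and 277 with stretching. Their log2 fold changes between the non-stretched stages lay between -2.40 and 0.23. The 5 macrophage markers, the cell type in which these transporters are best known, summed to between 1.07 and 1.56 CPM in myoblasts and to between 1.64 and 2.503 CPM in differentiated cells, and Adgre1 was at 0 in all 48 libraries. Between the non-stretched stages 2 of the 5 were tested. By edgeR 1 was called higher in differentiated cells (log2 fold change 8.03) and 1 lower (-0.87), where 26.4% of all genes were called higher. The 3 adipocyte markers summed to at most 0.154 CPM and the 3 endothelial markers to at most 0.792 CPM. With stretching, Myog, a regulator of differentiation, was lower in myoblasts at 3 h (log2 fold change -0.82, SE 0.234, adjusted p = 0.0167 by edgeR), and Kdr, an endothelial receptor, was higher at 6 h (1.26, SE 0.235, adjusted p = 0.0028). No other marker of these lists passed both limits in a stretch comparison by edgeR. Of the 6 differentiated muscle markers 5 were tested in myoblasts, and at 1 h their log2 fold changes lay between -1.25 and 0.04 with a median of -0.88. There 0 were called by edgeR's quasi-likelihood test, 3 passed at an unadjusted p under 0.05, and DESeq2 called 2, Myog (-1.25 in edgeR, SE 0.331, adjusted p = 0.0501) and Tnnt1 (-1.02, SE 0.295, adjusted p = 0.0714). At 3 h DESeq2 called Myh3 besides Myog, and the medians at 3 h and 6 h were -0.16 and -0.10. In differentiated cells the medians lay between -0.13 and -0.02, with 0 called by either tool and 0, 0 and 2 of 6 at an unadjusted p under 0.05. The part of these markers in other results was not tested. In RNA from whole cultures, fewer cells of a type and less RNA per cell cannot be told apart.

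In non-stretched cells Nr1h2 was the most abundant of the 5 genes, Mylip came next, and Nr1h3, Abca1 and Abcg1 were scarce. Per kilobase of exon, Nr1h2 stood at 10.8 ± 0.719 CPM in myoblasts and 15.8 ± 0.755 in differentiated cells (SD, n = 12 libraries). Mylip followed at 2.03 ± 0.1404 in myoblasts and 6.34 ± 0.287 in differentiated cells, and its range did not overlap that of any other member. In myoblasts the order was Nr1h3 (0.199 ± 0.0414), Abcg1 (0.161 ± 0.0257) and Abca1 (0.115 ± 0.0285), and the ranges of neighbours overlapped. In differentiated cells it was Nr1h3 (0.405 ± 0.0788), Abca1 (0.330 ± 0.0930) and Abcg1 (0.266 ± 0.0360), and neighbours overlapped here too, while Nr1h3 (0.320 to 0.572) and Abcg1 (0.206 to 0.304) did not overlap with each other. The mean level of Nr1h2 was 54.2 times that of Nr1h3 per kilobase in myoblasts and 38.9 times in differentiated cells. That of Mylip was 17.6 times that of Abca1 in myoblasts and 19.2 times in differentiated cells.

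**Figure D1:**
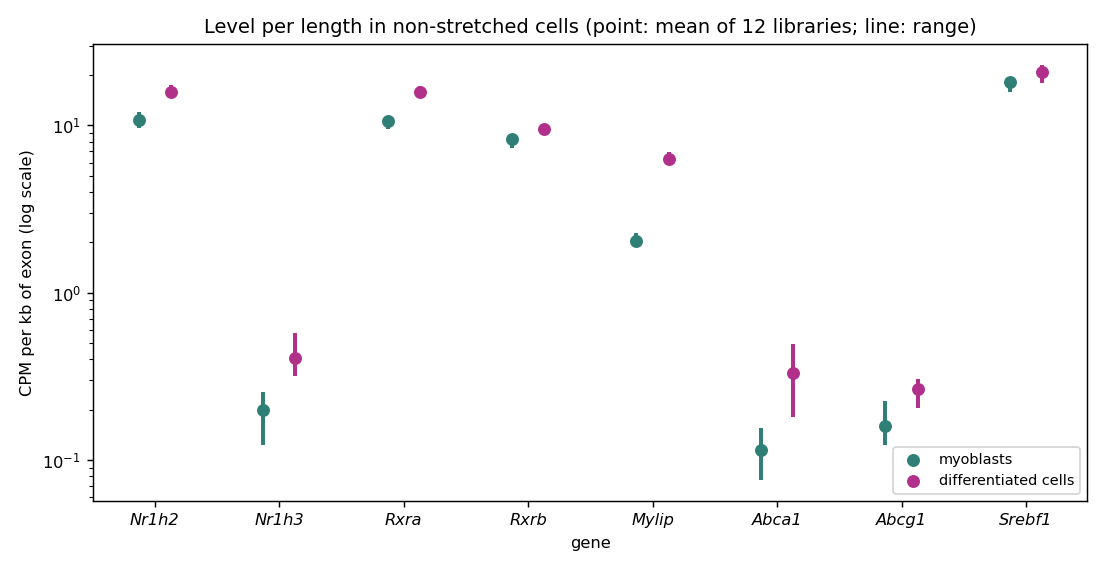
Level in non-stretched cells in CPM per kilobase of exon (log axis) for the 5 genes, the RXR genes Rxra and Rxrb, and Srebf1. Points are means of 12 libraries of a stage and lines run from the lowest to the highest library. Nr1h2, Rxra and Rxrb lie between 8.27 and 15.8 on average, while Nr1h3, Abca1 and Abcg1 lie between 0.115 and 0.405.

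All 5 genes were higher in differentiated cells than in myoblasts. The comparison of 24 non-stretched libraries with time as a covariate does not use stretching. Mylip was 3.07-fold higher (log2 fold change 1.62, SE 0.0353, adjusted p = 1.14e-24 by edgeR's quasi-likelihood test), and its 12 differentiated libraries, between 19.1 and 22.5 CPM, all lay above the 12 myoblast libraries, between 6.04 and 7.32 CPM. Abca1 was 2.80-fold higher (1.48, SE 0.143, adjusted p = 2.44e-10), from 0.789 to 1.62 CPM in myoblasts and from 1.87 to 5.13 in differentiated cells. Nr1h3 was higher by 1.00 on the log2 scale (SE 0.117, adjusted p = 9.56e-09). Abcg1 was 1.62-fold higher (0.70, SE 0.0792, adjusted p = 5.67e-09). Nr1h2 was 1.43-fold higher (0.52, SE 0.0326, adjusted p = 2.83e-14), which passed the test but not the fold limit of 0.58 on the log2 scale. At both limits, adjusted p under 0.05 and a log2 fold change of 0.58 or more, 26.4% of the 15439 genes tested were higher in differentiated cells and 4 of the 5 members were among them. Each stage has its own experiments, so stage and experiment cannot be told apart. The 12 libraries of a stage came from only B27 and B31 or B25 and B28. The standard errors and p-values thus rest on the spread between libraries and not between experiments.

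Without stretching, none of the 5 genes passed both limits between 1 h and 3 h or between 1 h and 6 h in either stage, by edgeR's quasi-likelihood test. At an unadjusted p under 0.05, Abca1 was higher at 3 h than at 1 h in myoblasts (log2 fold change 0.55, SE 0.1997, adjusted p = 0.159), and Abca1 (0.49, SE 0.224, adjusted p = 0.345) and Abcg1 (0.30, SE 0.121, adjusted p = 0.276) were higher at 6 h in differentiated cells. Of all genes tested, 0.092% were called at 3 h and 0.131% at 6 h in myoblasts, and 0% and 0.0949% in differentiated cells. DESeq2 called no member in these comparisons either. Leaving out replicate 9 of the 1 h group, the highest of its 4 libraries, took Abca1 in myoblasts past both limits (0.81 on the log2 scale).

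Between the experiments of a stage, Abca1 showed the largest difference of the 5. In non-stretched differentiated cells it was lower in B28 than in B25 by 0.56 on the log2 scale (log2 difference -0.56, SE 0.0984, adjusted p = 0.00218), just under the fold limit. At 1 h its libraries stood at 3.69 and 4.12 CPM in B25 and at 2.40 and 1.87 in B28. Nr1h2 was lower in B31 than in B27 myoblasts, with a log2 difference of -0.13 (SE 0.0328, adjusted p = 0.0279). No member passed both limits, against 0.195% of genes in myoblasts and 1.22% in differentiated cells.

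The responses to stretching are described next, receptors before targets. Since Mylip and Abca1 were chosen with this contrast known, the values of the 5 genes carry no p-value, and a gene is said to be past both limits where the fit across all genes called it. Among the 5, 1 gene was past both limits on the lower side in myoblasts at 1 h (Mylip), and 1 each in differentiated cells at 1 h (Mylip), 3 h (Abcg1) and 6 h (Abca1). None was past them on the higher side in any comparison. Of all genes tested in these comparisons, 0.997%, 0.18%, 0.741% and 1.52% were called lower, and of those in myoblasts at 3 h and 6 h, 1.25% and 0.823%. Those called higher were 0.254%, 0.459% and 1.35% in myoblasts and 0.0901%, 0.89% and 0.518% in differentiated cells, at 1 h, 3 h and 6 h. At an adjusted p under 0.05 with no fold limit, 5.92%, 31.9% and 27.2% of all genes passed in myoblasts and 0.663%, 22.2% and 22.3% in differentiated cells at these times, and counts without the fold limit are read beside these shares.

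**Figure D2:**
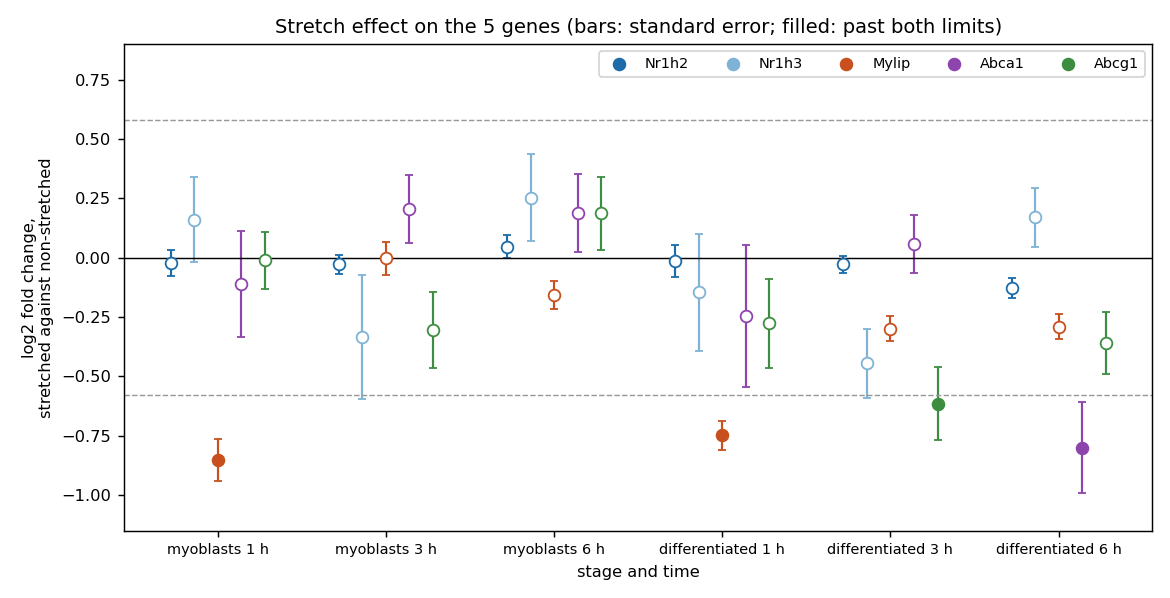
Log2 fold change of stretched against non-stretched cells for the 5 genes, by stage and time (4 libraries a group). Bars are standard errors, dashed lines mark the fold limit of 0.58 and filled points are past both limits. Mylip lies lowest at 1 h in both stages (-0.85 and -0.75), Abcg1 at 3 h (-0.62) and Abca1 at 6 h (-0.80) in differentiated cells.

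Nr1h2, the receptor that made up most of the LXR transcript, stayed close to its non-stretched level. Its group means lay between 35.0 and 37.5 CPM in myoblasts and between 48.3 and 53.0 CPM in differentiated cells. Its log2 fold changes lay between -0.03 and 0.05 in the first 5 comparisons. In differentiated cells at 6 h the value was -0.13 (SE 0.0431). There the non-stretched libraries of replicates 7, 8, 9 and 10 held 50.0, 54.0, 55.4 and 51.6 CPM and the stretched ones 47.5, 50.9, 46.1 and 48.8 CPM. The groups overlapped in that comparison through stretched replicate 8.

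Nr1h3, the receptor best known from liver, fat and macrophages, was measured on 16 to 97 counts a library and varied more. Its log2 fold changes were 0.16 (SE 0.179), -0.33 (SE 0.261) and 0.25 (SE 0.182) in myoblasts at 1 h, 3 h and 6 h. In differentiated cells they were -0.15 (SE 0.246), -0.44 (SE 0.146) and 0.17 (SE 0.126). The groups were separate only in differentiated cells at 3 h. There the non-stretched libraries of replicates 7, 8, 9 and 10 held 0.805, 0.853, 0.924 and 1.02 CPM and the stretched ones 0.652, 0.573, 0.704 and 0.725 CPM. The difference was alike in both experiments, -0.43 in B25 and -0.43 in B28 on the log2 scale, and was under the fold limit. At 1 h in differentiated cells the 2 libraries of B28 in the non-stretched group (1.44 and 1.31 CPM) and the only stretched one (1.44 CPM) were the highest, and within experiments the values were 0.10 and 0.07.

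Mylip, the ubiquitin ligase, was lower in stretched cells at 1 h in both stages. In myoblasts the non-stretched libraries of replicates 7, 8, 9 and 10 held 6.75, 6.08, 7.32 and 6.04 CPM, and the stretched ones held 3.52, 3.24, 4.07 and 3.68 CPM. All stretched libraries lay below all non-stretched ones. The stretched level was 0.554 times the non-stretched level (log2 fold change -0.85, SE 0.0889), with -0.92 within B27 and -0.78 within B31. The median of the 5 differentiated muscle markers in the same comparison was -0.88, and their part in this difference was not tested. In differentiated cells the non-stretched libraries of replicates 7, 8, 9 and 10 held 20.04, 20.5, 20.1 and 21.1 CPM, and the stretched ones of replicates 4, 7, 8 and 9 held 10.98, 12.9, 12.8 and 11.97 CPM. Again the groups did not overlap, and replicate 4, from the experiment of its own, was the lowest. The stretched level was 0.596 times the non-stretched level (-0.75, SE 0.0609), and without replicate 4 the log2 fold change was -0.70 (SE 0.0480) and still past both limits. Within B25 it was -0.66 and within B28, with 1 stretched library, -0.78.

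At later times the Mylip differences were smaller than at 1 h. In myoblasts at 3 h the stretched libraries of replicates 7 to 10 held 6.65, 7.55, 6.36 and 6.96 CPM and the non-stretched ones 6.83, 7.06, 7.19 and 6.28 CPM. The groups overlapped fully and the log2 fold change was -0.00 (SE 0.0694). At 6 h the stretched myoblasts, between 5.24 and 5.76 CPM, lay below the non-stretched ones, between 6.17 and 6.40 CPM, with a log2 fold change of -0.16 (SE 0.0587). In differentiated cells the stretched libraries stayed below all non-stretched ones, between 14.4 and 17.1 against 19.1 to 20.3 CPM at 3 h. At 6 h they lay between 16.5 and 18.8 CPM, and the non-stretched mean was 21.3 ± 1.07 CPM (SD, n = 4). The log2 fold changes were -0.30 (SE 0.0538) and -0.29 (SE 0.0542), under the fold limit. The stretch effect was less negative at 3 h than at 1 h by 0.84 on the log2 scale in myoblasts (SE 0.102) and by 0.45 in differentiated cells (SE 0.0790).

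Abca1, the cholesterol exporter, was past both limits in differentiated cells at 6 h. The non-stretched libraries of replicates 7, 8, 9 and 10 held 5.13, 4.57, 3.17 and 4.06 CPM and the stretched ones 2.03, 2.06, 3.47 and 2.17 CPM. Stretched replicate 9 lay above non-stretched replicate 9, so the groups overlapped, while the other 3 stretched libraries lay below all 4 non-stretched ones. The stretched level was 0.574 times the non-stretched level (log2 fold change -0.80, SE 0.192). The value was -1.23 within B25 and -0.39 within B28, and -1.02 (SE 0.155) without stretched replicate 9. It was past both limits whichever of the 8 libraries was left out, with values from -1.02 to -0.70. The non-stretched mean at 6 h was 4.23 CPM, against 3.02 at 1 h and 3.01 at 3 h. The stretched mean was 2.43 CPM, against 2.53 and 3.12 CPM at those times. The part of the higher non-stretched level in the 6 h difference was not tested.

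In the other comparisons Abca1 groups overlapped. In myoblasts its group means were 0.974, 1.42 and 1.19 CPM without and 0.897, 1.65 and 1.33 CPM with stretching at 1 h, 3 h and 6 h. The log2 fold changes were -0.11 (SE 0.224), 0.21 (SE 0.144) and 0.19 (SE 0.164). In differentiated cells the means at 1 h were 3.02 and 2.53 CPM and at 3 h 3.01 and 3.12 CPM, with log2 fold changes of -0.25 (SE 0.298) and 0.06 (SE 0.124). The 1 h value was -0.06 (SE 0.265) without replicate 4, whose 1.44 CPM was the lowest of the group, and 0.13 within B28 against -0.30 within B25.

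Abcg1, the exporter to high-density lipoprotein, was past both limits in differentiated cells at 3 h. The non-stretched libraries of replicates 7, 8, 9 and 10 held 2.21, 2.202, 1.69 and 1.74 CPM and the stretched ones 0.962, 1.44, 1.41 and 1.28 CPM. The groups did not overlap. The stretched level was 0.653 times the non-stretched level (log2 fold change -0.62, SE 0.153), -0.90 within B25 and -0.35 within B28. It was no longer past both limits without non-stretched replicate 7, non-stretched replicate 8 or stretched replicate 7, and the values over the 8 libraries left out ranged from -0.68 to -0.50.

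At 6 h in differentiated cells Abcg1 was again lower in each stretched library, between 1.29 and 1.99 CPM against 2.04 to 2.22, but under the fold limit (-0.36, SE 0.132). At 1 h the groups overlapped (-0.28, SE 0.186), and without replicate 4 the value was -0.14 (SE 0.151). In myoblasts the log2 fold changes were -0.01 (SE 0.121), -0.30 (SE 0.160) and 0.19 (SE 0.153) over the 3 times, and the groups overlapped at each. Abcg1 rested on 48 to 140 counts a library and Abca1 on 37 to 287.

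**Figure D3:**
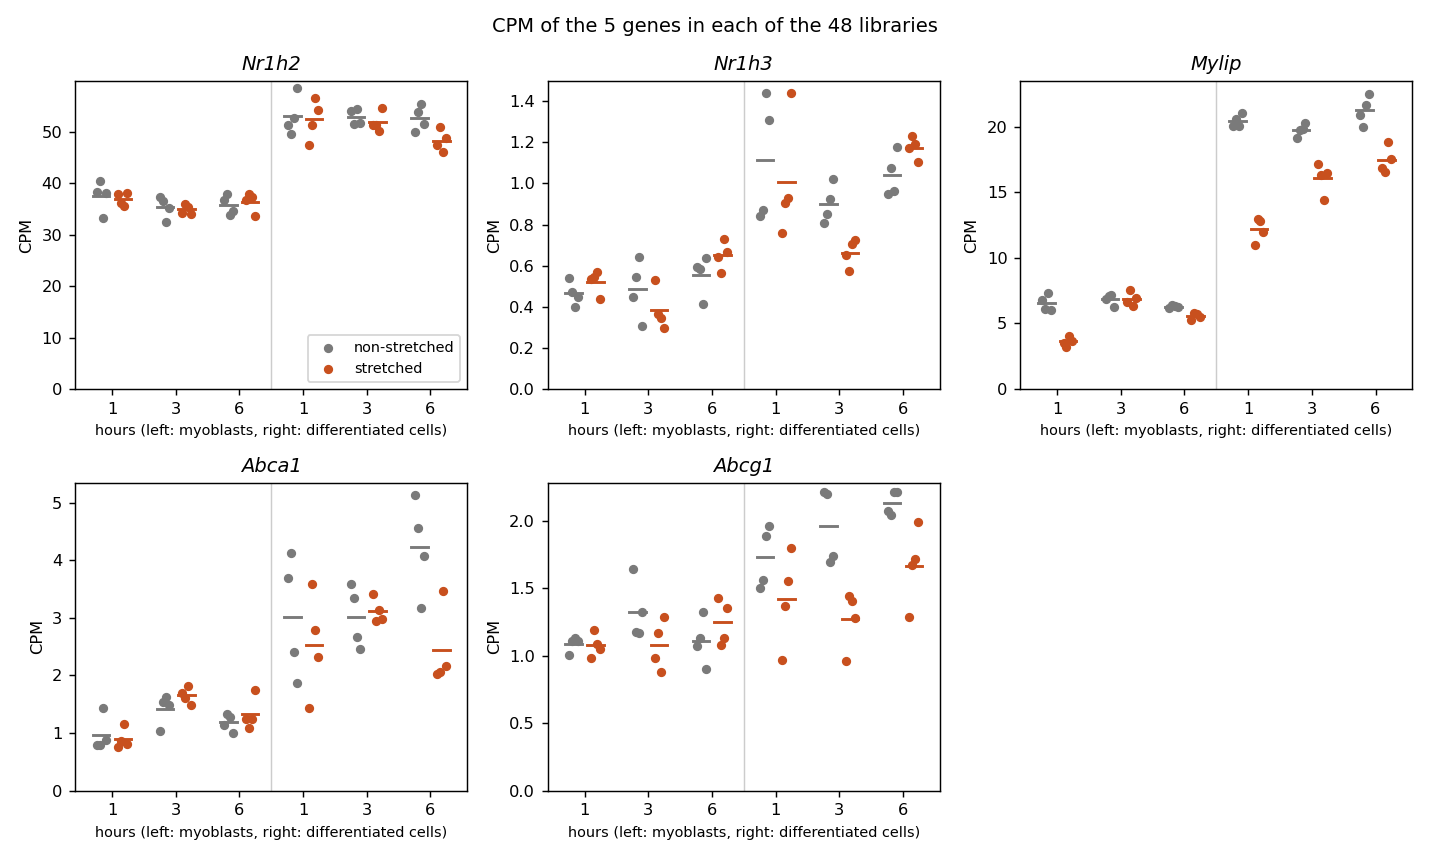
CPM of the 5 genes in each of the 48 libraries (points) with the mean of each group of 4 (lines), at 1 h, 3 h and 6 h in myoblasts and differentiated cells. All axes start at 0. Stretched Mylip libraries lie below the non-stretched ones at 1 h in both stages, and at 3 h and 6 h in differentiated cells.

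The other genes of the pathway come from lists that were written with earlier results of these data known. Of 20 other LXR targets, 11 passed the filter on low counts. Those left out include the liver genes Cyp7a1, Abcg5 and Apoc2, with at most 2 counts in a library. Apoe, the lipoprotein component, was called higher in stretched myoblasts at 3 h, from 0.685 ± 0.119 without to 1.38 ± 0.0952 CPM with stretching (SD, n = 4; log2 fold change 0.99, SE 0.152, adjusted p = 3.36e-04). At 1 h and 6 h the Apoe means were 0.998 and 0.963 CPM without and 1.25 and 1.00 CPM with stretching, so the 3 h non-stretched mean was the lowest. Fasn, the fatty acid synthase, rose in myoblasts at 6 h from 441.5 ± 21.5 to 662 ± 109.5 CPM (0.60, SE 0.0960, adjusted p = 0.00117). It was not past both limits without stretched replicate 7 (0.49). In the other 4 comparisons 0 of 11 were called by edgeR's quasi-likelihood test, and at an adjusted p under 0.05 with no fold limit 1 of 11 passed in myoblasts at 1 h and 0, 3 and 5 in differentiated cells at 1 h, 3 h and 6 h (2, 2, 4 and 6 at an unadjusted p under 0.05). The shares of all genes there were 5.92%, 0.663%, 22.2% and 22.3%. DESeq2 called none of them there either.

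Srebf1, the lipogenic factor with the same site letters as Abca1, showed log2 fold changes between -0.10 and 0.02, none past the test (adjusted p between 0.277 and 0.972). The median over the 11 targets lay between -0.02 and 0.08 in the 6 comparisons, beside -0.01 to 0.00 over all genes tested. Prrg4, named only because its window holds the same letters, showed values between -0.12 and 0.20.

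The partners of the receptors differed little with stretching. Rxra and Rxrb passed the filter and neither was called, with log2 fold changes from -0.17 to 0.12. Rxrb passed the test but not the fold limit in myoblasts at 3 h (-0.17, SE 0.0370, adjusted p = 0.0041) and in differentiated cells at 3 h (-0.11, SE 0.0337, adjusted p = 0.0412). Rxrg, the RXR of mature muscle, was at 0 in all non-stretched myoblast libraries and at 2 to 12 counts in non-stretched differentiated ones. Of 11 coregulators of LXR, among them the corepressor Ncor1 and the coactivator Ncoa1, 0 were called in any comparison by edgeR's quasi-likelihood test. At an adjusted p under 0.05 with no fold limit, between 0 and 3 of 11 passed, beside 0.663% to 31.9% of all genes, at an unadjusted p under 0.05 between 1 and 5, and DESeq2 called 0.

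Of 6 genes that make or convert oxysterols, between 3 and 5 passed the filter and 0 were called by edgeR's quasi-likelihood test, with 0 to 3 at an unadjusted p under 0.05. DESeq2 called 1 in differentiated cells at 6 h, Ch25h, which edgeR placed at -0.60 (SE 0.197, adjusted p = 0.0515). Ch25h, the cholesterol 25-hydroxylase, had the widest value, 0.76 in myoblasts at 3 h (SE 0.296, adjusted p = 0.0686), which missed the test. In differentiated cells it passed the test, under the fold limit, at 3 h (0.49, SE 0.1095, adjusted p = 0.00927). In the comparison of stages all 5 that were tested were called higher in differentiated cells, beside 26.4% of all genes. Ch25h was 11.8-fold higher there (adjusted p = 4.86e-20 by edgeR), and stage and experiment cannot be told apart. Of 13 genes of cholesterol transport and storage 11 were tested, and edgeR made 1 call, Gramd1c in myoblasts at 6 h (-1.10, SE 0.375, adjusted p = 0.0481). Its groups overlapped, DESeq2 did not call it, and leaving out a library ended the call for 6 of the 8. With no fold limit 4 of the 11 passed in myoblasts at 3 h (1 higher) and 7 at 6 h (6 higher, list median 0.18), beside 31.9% and 27.2% of all genes. In differentiated cells 3 passed at 3 h (0 higher), beside 22.2%, and 0 at 6 h, beside 22.3%. At 1 h 0 passed in either stage.

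The MYLIP protein acts on receptors for lipoproteins, of which Vldlr and Lrp8 are given here with the partners of MYLIP, 6 genes in all. Transcripts were counted, and protein was not measured in these libraries. At 1 h, when Mylip was lowest, 0 of 6 were called in either stage by edgeR's quasi-likelihood test, with 1 at an unadjusted p under 0.05 in each stage, and DESeq2 called 0. With no fold limit 0 passed at 1 h in either stage. In myoblasts 5 of 6 passed at 3 h (3 higher) and 1 at 6 h (1 higher), beside 31.9% and 27.2% of all genes. In differentiated cells 4 passed at 3 h (3 higher) and 3 at 6 h (3 higher), beside 22.2% and 22.3%.

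Lrp8, the apolipoprotein E receptor 2, rose at 6 h in the differentiated cells, from 15.6 ± 0.919 to 26.7 ± 1.54 CPM (SD, n = 4; log2 fold change 0.77, SE 0.0546, adjusted p = 1.50e-04). Vldlr fell in myoblasts at 3 h, from 1.32 ± 0.288 to 0.879 ± 0.0784 CPM (-0.60, SE 0.167, adjusted p = 0.0153). Usp2, a deubiquitinase that acts on MYLIP, fell in the same comparison, from 1.10 ± 0.204 to 0.729 ± 0.0400 CPM (-0.60, SE 0.162, adjusted p = 0.0120). Both lay just past the fold limit. Vldlr lost its call without stretched replicate 8 (-0.57), non-stretched replicate 9 (-0.44) or stretched replicate 9 (-0.56), and also in 1 model of all 24 libraries of the stage, where its fold change was nearly the same and its standard error larger. Usp2 lost its call without non-stretched replicate 10 (-0.48) or stretched replicate 10 (-0.57). Neither passed a test against the fold limit itself (glmTreat). The ubiquitin-conjugating enzymes Ube2d1, Ube2d2a and Ube2d3 were called in no comparison.

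The SREBP2 pathway was measured in 25 genes. At 1 h 0 of 25 were called in either stage by edgeR's quasi-likelihood test. With no fold limit 6 passed in myoblasts, all lower, and 0 in differentiated cells, beside 5.92% and 0.663% of all genes. At an unadjusted p under 0.05 the counts were 15 and 0, and DESeq2 called 0 in both. At 3 h 0 were called in myoblasts and 9 in differentiated cells, and at 6 h 4 and 7, all of them higher. In myoblasts at 3 h 13 passed at an unadjusted p under 0.05 and DESeq2 called 0. With no fold limit 11 passed in myoblasts at 3 h (9 higher) and 20 at 6 h (20 higher), beside 31.9% and 27.2% of all genes. In differentiated cells 19 passed at 3 h (18 higher) and 20 at 6 h (20 higher), beside 22.2% and 22.3%. Examples were Mvd in myoblasts at 6 h (log2 fold change 1.04, SE 0.0748, adjusted p = 1.44e-05) and Insig1 in differentiated cells at 3 h (1.02, SE 0.108, adjusted p = 2.37e-04), which encodes the protein that holds SREBP in the endoplasmic reticulum. The median over the 25 genes was -0.12, 0.04 and 0.40 in myoblasts and 0.01, 0.41 and 0.51 in differentiated cells at 1 h, 3 h and 6 h. Beside these, Mylip had its lowest value at 1 h and the transporters Abcg1 and Abca1 in differentiated cells at 3 h and 6 h, respectively.

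**Figure D4:**
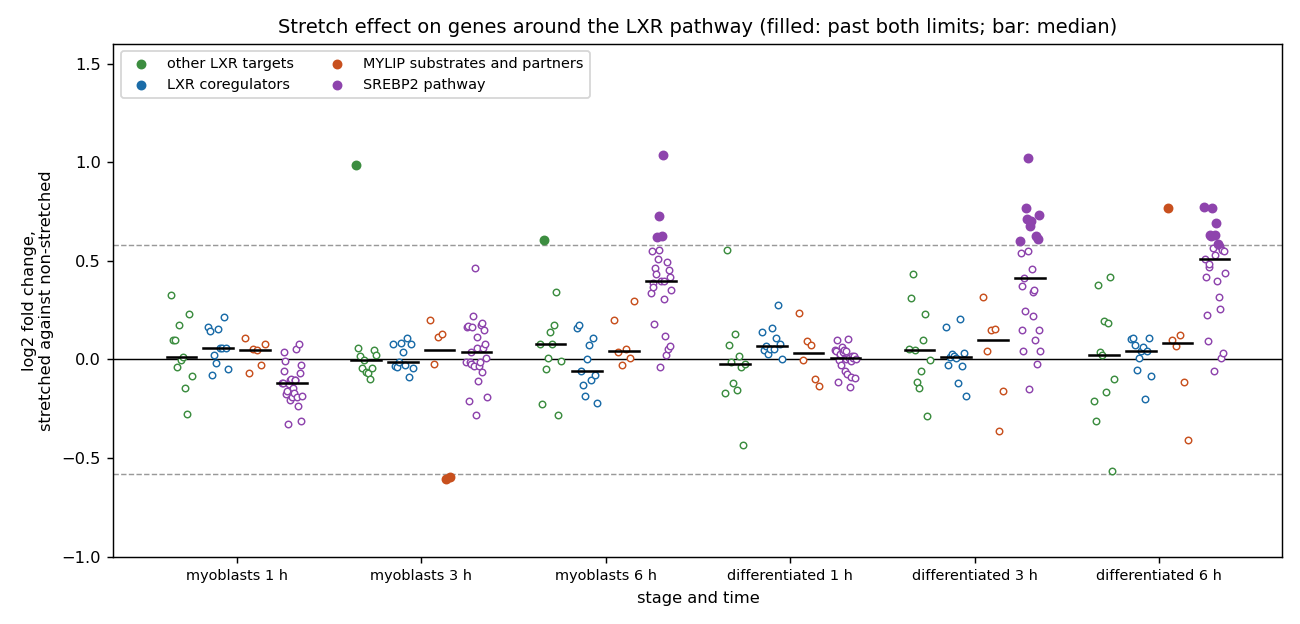
Log2 fold change of stretched against non-stretched cells for 11 other LXR targets, 11 LXR coregulators, 6 MYLIP substrates and partners and 25 SREBP2 pathway genes. Each point is a gene, filled where past both limits, the black bars are medians and the dashed lines mark 0.58. The SREBP2 medians are 0.40 in myoblasts at 6 h and 0.41 and 0.51 in differentiated cells at 3 h and 6 h, while the medians of the other LXR targets lie between -0.02 and 0.08.

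The genes whose log2 CPM followed Mylip most closely over the 24 libraries of each stage were 4632415L05Rik, Zfp113, Zfp626, Zfp760 and Zfp866, 4 of them named as zinc finger proteins. They were ranked among 11068 genes by the lower of the 2 Pearson correlations, which ran from 0.878 for 4632415L05Rik to 0.844 for Zfp866. The libraries of a stage share the groups and experiments, so these values describe likeness and were not tested. Stretched libraries were part of the ranking, so lower values at 1 h like those of Mylip follow in part from the choice. At 1 h the 5 genes were lower in stretched cells in both stages, with log2 fold changes from -1.51 (Zfp866) to -0.71 (4632415L05Rik) in myoblasts and from -1.22 (Zfp866) to -0.54 (Zfp113) in differentiated cells. At 6 h in differentiated cells 4 of them lay between 0.03 and 0.11 and Zfp760 at -0.17, beside -0.29 for Mylip.

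**Figure D5:**
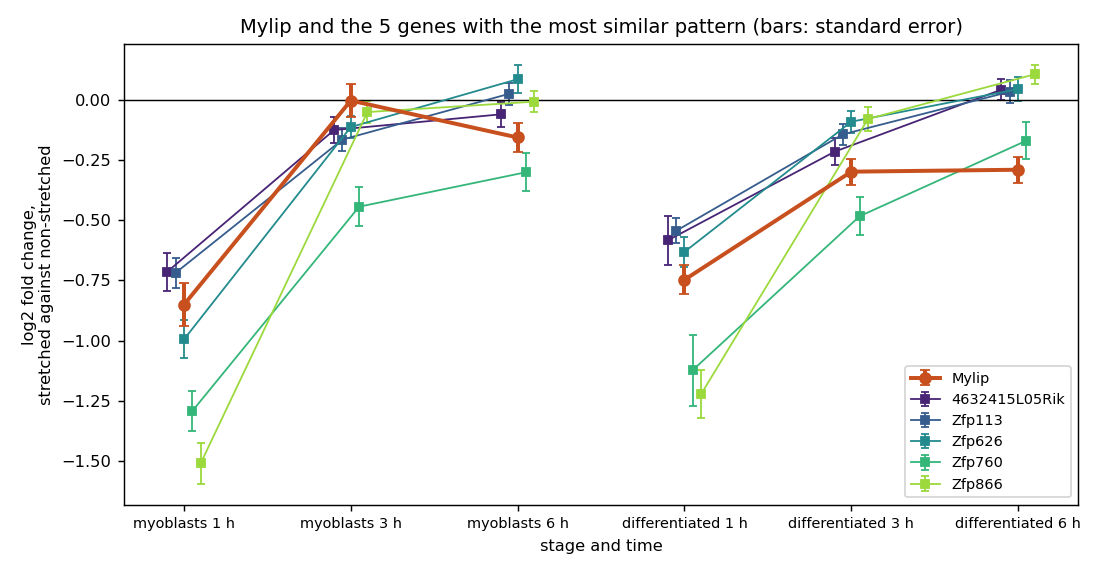
Log2 fold change of stretched against non-stretched cells for Mylip and the 5 genes most like it, by stage and time, with standard errors. All 6 genes have their lowest value at 1 h in each stage, between -1.51 and -0.54. The 5 genes were picked for likeness to Mylip in these same libraries, so this follows in part from the choice.

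For Abca1 the closest genes were Tbcel, Dclk1, Zfp652, Klf3 and Akap6, with lower correlations from 0.733 to 0.692. None of the 5 had a stretch effect past both limits in any comparison. In differentiated cells at 6 h their values lay between -0.16 (Dclk1) and -0.03 (Klf3), beside -0.80 for Abca1. In the comparison of stages all 5 were higher in differentiated cells, from 0.80 (Klf3) to 4.50 (Dclk1) on the log2 scale, as Abca1 was. Of all genes tested, 26.4% were called higher there.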

How the data were processed

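RNA was sequenced from 48 C2C12 libraries (24 of myoblasts and 24 of differentiated cells). Per the labels and the study's methods, RNA was extracted directly after stretching and mRNA libraries were made with a stranded kit, although the molecule label reads nuclear RNA. The authors aligned reads with STAR to mm10, quantified with Salmon and deposited, for each stage, a table of estimated counts per gene symbol and library, without normalization and stored as whole numbers. Estimated counts depend on how Salmon divided reads shared between genes.

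Groups came from the labels. Stretched myoblast replicate 9 at 1 h has an experiment code in its title (B231) that differs from its column in the table (B31), and B31 was used. The 8 libraries of each stage and time were compared with edgeR 4.0.16 (R 4.3.3; TMM, filterByExpr, quasi-likelihood test, Benjamini-Hochberg adjustment over all genes tested). Calls needed an adjusted p under 0.05 and a log2 fold change of 0.58 or more. Stages, times and experiments were compared in non-stretched libraries with the same test. CPM used TMM factors over all 48 libraries and log2 CPM a prior count of 1. Exon lengths and shared 31-base stretches came from GENCODE vM21. DESeq2 1.42.0 and the other alternatives are in the closing section. Genes named are the 5 members, Srebf1, Rxra and Rxrb, up to 4 called genes per list and comparison with the largest change, and the 5 genes most like Mylip and Abca1 (mean of at least 100 counts in each stage). Ube2d1, Ube2d2a, Ube2d3, Ch25h, Rxrg, Prrg4, Myog, Myh3, Tnnt1, Kdr, Adgre1, Ncor1, Ncoa1 and genes without counts were named after their values were seen. Members and lists were chosen with earlier results of these data known. Libraries held 48447318 to 77080730 counts, and among the members the standard errors were largest for the low-count genes Nr1h3, Abca1 and Abcg1. The fits were tested on simulated data. Some genes of the lists are not reported here and were left out of their counts. Splicing was not analysed here.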

Additional observations from a re-analysis of the deposited data

Results flagged for a closer look

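Among 60 groups of 4 libraries of the 5 genes, 2 held a library far from the other 3, where chance gives about 1 in 20. Abca1 stood at 1.44 CPM in replicate 9 of the non-stretched myoblasts at 1 h, the highest of its group, and at 3.47 CPM in differentiated cells stretched for 6 h (replicate 9), again the highest.

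The stretch effect at 6 h exceeded that at 1 h for several SREBP2 pathway genes. An interaction term in 1 model of a stage was used (edgeR, adjusted p under 0.05, difference of log2 fold changes of 0.58 or more). Only the pathway genes with the largest called stretch effects at 3 h or 6 h in these data were looked at. The differences therefore follow in part from that choice, and the share of all genes passing was not counted. In myoblasts the differences were 1.21 for Mvd, 0.95 for Hmgcs1, 0.83 for Insig1, 0.77 for Msmo1, 0.76 for Idi1, 0.73 for Stard4 and 0.63 for Hsd17b7. In differentiated cells they were 0.76 for Mvd, 0.73 for Idi1, 0.72 for Acat2, 0.66 for Hmgcs1, 0.64 for Stard4 and 0.59 for Msmo1. Of the 31-base stretches of Acat2, 43.7% also occur in other genes, and of Idi1 18.8%, so their counts are uncertain.

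Nr1h3 in differentiated cells was lower than the non-stretched mean in all 4 stretched libraries at 3 h and higher in all 4 at 6 h. The log2 fold changes differed by 0.61, and this difference was not tested.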

How the results depend on the processing

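The alternatives were DESeq2, RLE normalization, other filters on low counts, 1 model for each stage, the replicate block, the experiment as a covariate, a test against the fold limit (glmTreat), no fold limit, and each library left out. For the members, 932 of 945 alternatives matched the main result, 7 lost a call, 3 gained one and 0 turned the direction of a called value. The other 3 stayed without a call but moved by at least the mean SD of log2 CPM within groups. Most of the 945 concern values without a call, which match if they stay uncalled and move little. All 7 lost calls fell on the stretch calls of Mylip, Abca1 and Abcg1, 4 of them on Abcg1 in differentiated cells at 3 h. Of 611 alternatives run on the other named genes, an addition made after seeing the data, 576 matched, 31 lost a call, 2 gained one and 2 moved without a call. Of 393 counts of calls, 373 stayed within 1.5 times, and most of these counts were 0 in the main result. With glmTreat, which asks for a change beyond 0.58, 0 members were past it in myoblasts at 1 h or in differentiated cells at any time, and 0 other LXR targets in myoblasts at 3 h and 6 h. With no fold limit, 2 members passed at each of 3 h and 6 h in differentiated cells (beside 22.2% and 22.3% of all genes), and 1, 2 and 4 other LXR targets in myoblasts and 3 and 5 in differentiated cells (3 h and 6 h).

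With each library left out, the members called lower in differentiated cells at 3 h ranged from 0 to 1. The other LXR targets called ranged from 0 to 1 in myoblasts at 6 h and in differentiated cells at 1 h and 6 h, and members called in non-stretched myoblasts between 1 h and 3 h from 0 to 1. For all genes the calls in differentiated cells at 1 h, 42, became 98 with DESeq2, 126 in 1 model of the stage and 9 to 87 with a library left out. In the same comparison it was 66 with no filter or with the experiment as a covariate. In myoblasts, calls dropped from 187 to 123 at 1 h and from 324 to 211 at 6 h without stretched replicate 9. Over the 6 comparisons glmTreat left 0 to 16 calls, and no fold limit gave 103 to 4719.

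Same-numbered libraries deviated together at most weakly (23 pairs, r from -0.0441 to 0.153, 6 over 0.1). Only 8 were closest to their own number, so the numbers were not taken as pairs. The closest library mostly came from the same experiment, and the main fit held no term for the experiment. With the replicate block, and also with the experiment as a covariate, the same member calls were made as in the main fit. These were 1 member each called lower in myoblasts at 1 h and in differentiated cells at 1 h, 3 h and 6 h. Abca1, Abcg1 and Nr1h3 rested on 16 to 287 counts a library.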
